A study of Bos taurus with 6 samples.

Results

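7SK RNA and the signal recognition particle (SRP) RNA, listed as Metazoa_SRP, had the highest levels of the RFAM-annotated small RNAs listed for bovine longissimus muscle. These RNAs were chosen by their FPKM, which is among the highest in both stages, and their members are all rows annotated 7SK or Metazoa_SRP. This gave 9 rows of 5288, namely 4 of 7SK and 5 of Metazoa_SRP, each at a locus of its own. The levels below are therefore a description of the values that led to the choice, and no test was made on them. The muscle came from 3 adult Qinchuan cattle, aged 24 months, and from 3 Qinchuan embryos, 90 days after fertilization. All animals belong to the Qinchuan breed, were sampled at a slaughterhouse and received no treatment that the labels name. Ribosomal RNA was removed with the Ribo-Zero kit before random-primed, strand-selected libraries were made and sequenced as paired ends, although the molecule is labelled polyA RNA. Levels are given in FPKM, fragment numbers divided by exon length and by library size, and the table holds 1 authors' value per stage and no value per animal. No spread between animals, standard error or p-value can be given, and the number of fragments behind each value is unknown.

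7SK is a short nuclear RNA made by RNA polymerase III. It serves as a scaffold on which HEXIM proteins hold the kinase P-TEFb, made of CDK9 and a T-type cyclin, in an inactive state, so that 7SK controls how much of this kinase is free to release paused RNA polymerase II. SRP RNA, also made by RNA polymerase III and known as 7SL, is the scaffold of a cytosolic particle that recognises signal peptides as they leave the ribosome and brings the ribosome to the endoplasmic reticulum. Both RNAs are present in all cells, lack a poly(A) tail, and have many near-identical copies and pseudogenes in mammalian genomes.

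The table was limited to transcripts that the authors called different between the stages, and each of the 5288 rows either differs by 2-fold or more or has a 0 in 1 of the stages. Of the 10 symbols checked as muscle markers, 6 have a row, and these took 13.7% of the FPKM total in adult muscle and 4.95% in embryonic muscle. MYLPF, a light chain of fast myosin, had 30372 FPKM in adult muscle and 784 FPKM in embryonic muscle. Over all rows, the authors' FPKM added up to 674416 in adult muscle and 70750 in embryonic muscle, a 9.53-fold difference, and the median log2 ratio of adult to embryonic FPKM was 2.71 among the 5248 rows above 0 in both stages. This shift of the whole table is the background against which each member is read.

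The main 7SK locus, annotated as RFAM family RF00100, lies at chr23:24977642-24977972 (bosTau7) and spans 331 bases. Its authors' FPKM was 62084 in adult muscle and 13663 in embryonic muscle, the highest value of the table in both stages. The adult value was 4.54-fold the embryonic one, a log2 ratio of 2.18. Of the rows above 0 in both stages, 64.0% had a higher log2 ratio, so that this locus lay below the table's median difference.

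The other 3 rows of 7SK were far lower. The row on chromosome 5 had an authors' FPKM of 64.8 in adult muscle and 12.2 in embryonic muscle (log2 ratio 2.41), but its locus, chr5:38273723-38390389, spans 116667 bases and so is much longer than the RNA. The 304-base locus at chr22:45657968-45658271 had 17.5 in adult muscle and 1.72 in embryonic muscle, a log2 ratio of 3.35, the highest of the 7SK rows. The locus at chr17:52812930-52814350, of 1421 bases, was listed at 0 in adult muscle and at 1.05 in embryonic muscle, and it was the only one of the 9 rows with the lower value in the adult. Together these 3 loci held 0.132% of the summed 7SK FPKM in adult muscle and 0.109% in embryonic muscle. Nearly all of the FPKM listed for 7SK therefore stood at 1 locus in both stages. Copies that were not called different have no row, so their part of the 7SK signal is not known. The FPKM summed over the 4 rows, 62166 in adult muscle and 13678 in embryonic muscle, gave the same log2 ratio of 2.18 as the main locus alone.

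The main Metazoa_SRP locus, of RFAM family RF00017, lies at chr10:42863856-42864152 and spans 297 bases. Its authors' FPKM was 28181 in adult muscle, which ranked 4 in the table, and 6347 in embryonic muscle, where only 7SK was higher. The adult value was 4.44-fold the embryonic one (log2 ratio 2.15), close to the 2.18 of 7SK, and 65.1% of the rows above 0 in both stages had a higher ratio.

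The 4 further Metazoa_SRP rows differed more among themselves. At chr23:29878490-29878784, a locus of 295 bases, the authors' FPKM was 2457 in adult muscle and 1169 in embryonic muscle. This log2 ratio of 1.07 was the lowest of all members, and 89.8% of the rows above 0 in both stages had a higher one. In adult muscle this locus ranked 32 in the whole table, and in embryonic muscle it ranked 4.

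At chr15:41408728-41409024, a locus of 297 bases, the authors' FPKM was 869 in adult muscle and 85.0 in embryonic muscle. With a log2 ratio of 3.35 it had the highest ratio of the Metazoa_SRP rows. At chr3:78400188-78473783, a locus of 73596 bases, it was 451 in adult muscle and 68.3 in embryonic muscle (log2 ratio 2.72), and at chr9:2105887-2106183, of 297 bases, it was 181 in adult muscle and 37.6 in embryonic muscle (2.26). All 5 rows were higher in adult muscle, as were 90.3% of all rows. Their adult-to-embryo differences spanned 2.10-fold to 10.2-fold.

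**Figure D1:**
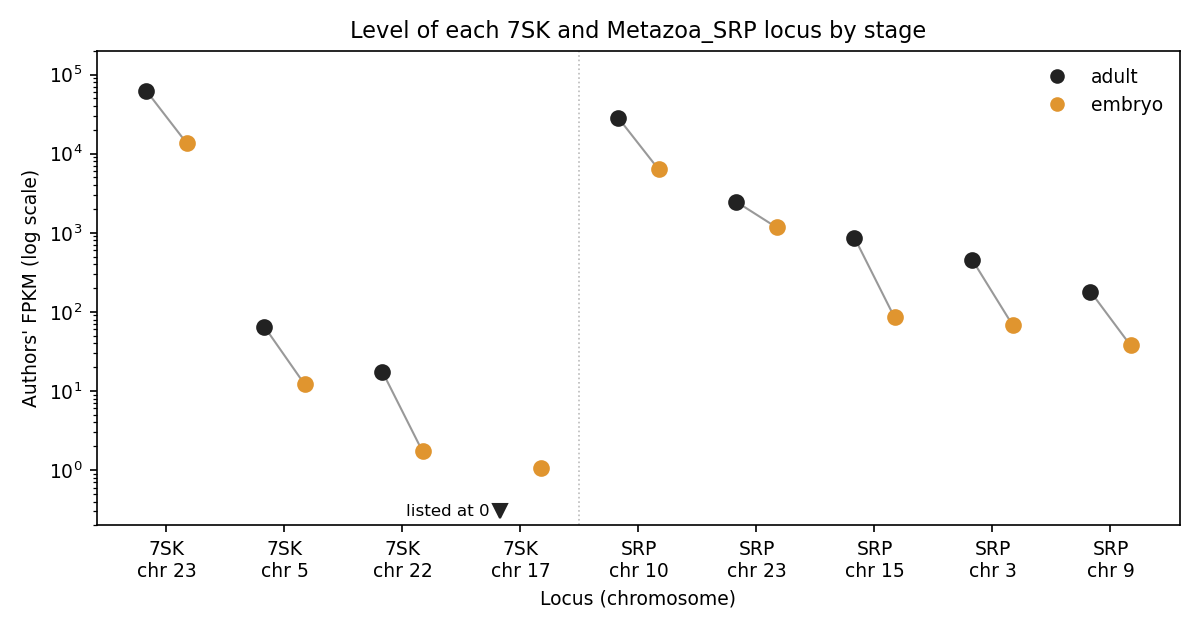
Authors' FPKM (log axis) of the 4 7SK and the 5 Metazoa_SRP (SRP) loci, with the adult value on the left and the embryonic value on the right of each pair. The 7SK locus on chromosome 23 stands at 62084 and 13663, and the 7SK locus on chromosome 17, listed at 0 in the adult, is drawn as a triangle below the scale.

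Without the main locus on chromosome 10, the Metazoa_SRP rows added up to 3957 in adult muscle and 1360 in embryonic muscle, a log2 ratio of 1.54 against 2.06 for all 5 rows. These 4 loci held 12.3% of the summed Metazoa_SRP FPKM in adult muscle and 17.6% in embryonic muscle, most of it at the chromosome 23 locus, which held 7.64% in adult muscle and 15.2% in embryonic muscle. The Metazoa_SRP signal was thus spread over more loci than the 7SK signal in both stages. Since the FPKM rest on uniquely mapped fragments, fragments shared by near-identical copies may be missing or may be placed at another copy, and the level of a single copy is uncertain. None of the 9 loci overlaps the locus of another row of the table. Overlap with transcripts that were not called different cannot be seen.

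Of the 9 rows, 8 were higher in adult muscle, where 90.3% of all rows were. Of the 8 rows above 0 in both stages, 7 were at least 4-fold higher in adult muscle, against 69.8% of all such rows, and 2 were at least 8-fold higher, against 41.7%. The counts of the members are small and were fixed by a choice made on level, so nothing is read from these shares. The median log2 ratio was 2.41 over the 3 7SK rows above 0 in both stages and 2.26 over the 5 Metazoa_SRP rows, beside 2.71 over the table.

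Besides 7SK and Metazoa_SRP, 94 rows had an FPKM of at least 1000 in adult muscle and a value above 0 in the embryo. These rows were picked on the adult value alone, which favours high adult-to-embryo ratios, so their ratios are no comparison for the 2 RNAs and nothing is read from them. TNNC2, the fast troponin C, ranked 2 in adult muscle and 3 in embryonic muscle, with a log2 ratio of 3.95. In embryonic muscle 4 rows of the whole table reached an FPKM of 1000, and 3 of them were rows of 7SK or Metazoa_SRP. In adult muscle 98 rows reached it, and 3 of them were rows of these RNAs. The RNAs were chosen by FPKM and the FPKM totals differ between the stages, so nothing is read from these counts.

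**Figure D2:**
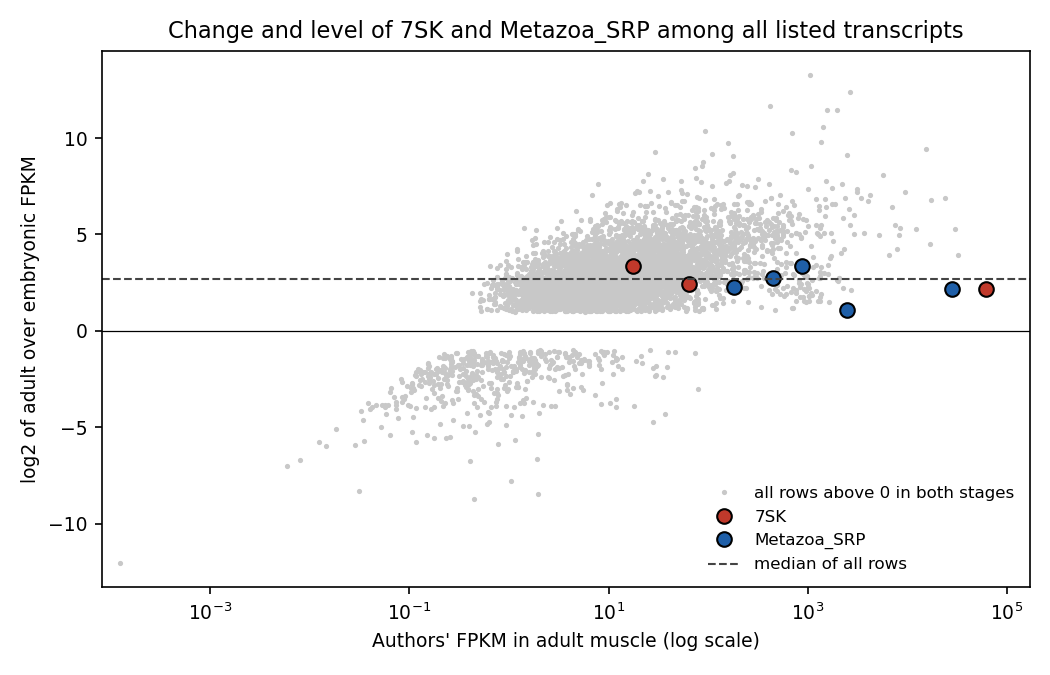
Log2 ratio of adult to embryonic FPKM (vertical axis) against the authors' FPKM in adult muscle (horizontal log axis) for the 5248 rows above 0 in both stages, with 7SK in red, Metazoa_SRP in blue and the median of all rows, 2.71, as a dashed line. Both main loci lie at the right edge with log2 ratios of 2.18 and 2.15, below the dashed line. Since the adult FPKM is also part of the ratio, rows to the right tend to have high ratios. The empty band around 0 reflects the 2-fold minimum of the table.

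Over the 2 stages, and among these 94 rows, the log2 ratios nearest to both RNAs included those of RPL13A (2.20), RPS18 (2.22) and RPS2 (2.14), proteins of the large or small ribosomal subunit, and of GNB2L1 (2.09), which encodes the ribosome-bound scaffold RACK1. RPL13A was the nearest to 7SK, with a difference of 0.02, and RPS2 the nearest to Metazoa_SRP, with a difference of 0.01. RPS2 had an authors' FPKM of 2709 in adult muscle and 613 in embryonic muscle. With 1 value per stage, such likeness covers a single ratio and not a profile over animals, and many rows below an adult FPKM of 1000 were not considered. The nearest rows were found by the same ratio among rows picked on the adult value. Nothing is therefore read from which genes they are.

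The share of the FPKM total was lower in adult muscle for both RNAs, as it was for most rows. The total covers called transcripts only, and 35.1% of the rows above 0 in both stages had the larger share in adult muscle. The rows of cytosolic ribosomal proteins took 11.0% in adult muscle and 19.3% in embryonic muscle, a 1.76-fold larger embryonic share. The 4 rows of 7SK took 9.22% of the total in adult muscle and 19.3% in embryonic muscle, so that the embryonic share was 2.10-fold the adult one. The 5 rows of Metazoa_SRP took 4.77% in adult muscle and 10.9% in embryonic muscle, a 2.29-fold larger embryonic share. The size of this difference depended on the denominator. Among the 93 rows with a locus of at most 1000 bases, with FPKM weighted by locus length, 7SK took 52.5% in adult muscle and 55.1% in embryonic muscle, and Metazoa_SRP took 24.0% in adult muscle and 27.6% in embryonic muscle. Both RNAs themselves make up most of this weighted total, which limits how far their shares can differ between the stages. Over all rows, both RNAs together took 13.98% in adult muscle and 30.2% in embryonic muscle. The summed FPKM of the other 5279 rows was 580111 in adult muscle and 49365 in embryonic muscle, an 11.8-fold difference, so that each RNA had a higher level and a lower share in the adult. In bulk tissue such as this, fewer cells of a type and less RNA per cell cannot be told apart. The muscle markers took the larger share in adult muscle, as given above, and their part in the lower shares of the small RNAs was not tested.

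**Figure D3:**
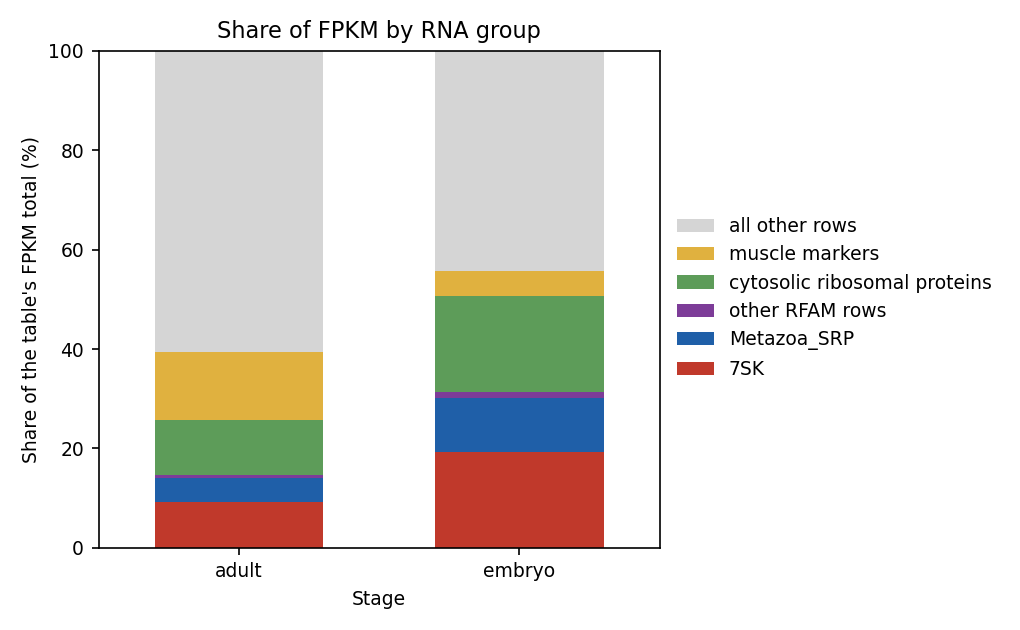
Share of the table's FPKM total (vertical axis, %) in adult muscle (left bar) and embryonic muscle (right bar), stacked by group. 7SK and Metazoa_SRP, the lowest 2 segments, fill 13.98% of the adult bar and 30.2% of the embryonic bar.

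The ratio between the RNAs does not depend on how the stages are scaled. The summed FPKM of 7SK was 1.93-fold that of Metazoa_SRP in adult muscle and 1.77-fold in embryonic muscle. The RNAs thus kept nearly the same proportion to each other while each differed over 4-fold in FPKM between the stages. Multiplied by locus length in kilobases, the FPKM of the main 7SK locus came to 20550 in adult muscle and 4522 in embryonic muscle, and that of the main Metazoa_SRP locus to 8370 in adult muscle and 1885 in embryonic muscle. These products would be fragments per unit of library size, as in FPKM, if the full locus length had been the divisor. RNAs this short are close in length to the sequenced fragments, and estimators that correct for fragment length would make the true fragment numbers smaller.

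The direction of both RNAs depended on the scaling between the stages. When both stages were given an equal FPKM total, which lowers every log2 ratio by 3.25, the main loci came to -1.07 for 7SK and -1.10 for Metazoa_SRP. Centring on the median of all rows gave -0.52 for 7SK and -0.55 for Metazoa_SRP, and centring on the 74 cytosolic ribosomal protein transcripts above 0 in both stages, whose median was 2.35, gave -0.16 and -0.19 in the same order. The total and both medians come from called transcripts, which were mostly higher in the adult, so the size of these shifts depends on the authors' calling. Each scaling moves every row by the same amount, and of all rows above 0 in both stages 28.4% to 59.6% were higher in the adult under the 4 scalings used here, the fourth being the FPKM total without the 9 rows. The loci with the highest ratios, on chromosome 22 for 7SK and on chromosome 15 for Metazoa_SRP, stayed higher in adult muscle under these 3 scalings, with 0.09 and 0.10 under the same FPKM total. They too turned negative, at -0.21 and -0.20, when the total was taken without the 9 rows. The Metazoa_SRP locus on chromosome 23 was the lowest throughout and reached -2.48 under that scaling.

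**Figure D4:**
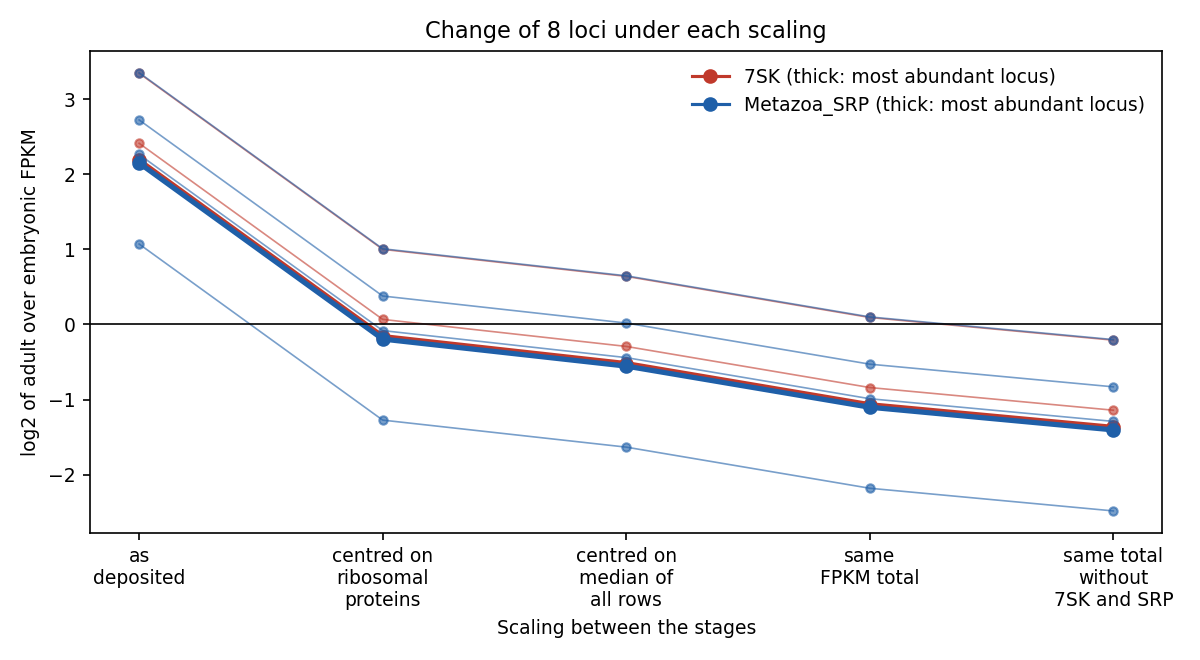
Log2 ratio of adult to embryonic FPKM (vertical axis) of the 8 loci above 0 in both stages, as deposited and under 4 scalings between the stages (horizontal axis), with 7SK in red, Metazoa_SRP in blue and thick lines for the main loci. As deposited all 8 are positive, as are 90.8% of all rows above 0 in both stages. Under the same FPKM total without the 9 rows all 8 are negative, and 28.4% of all such rows are positive.

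The protein partners of 7SK were listed at levels far below the RNA. Of 32 genes of the 7SK particle and of transcript elongation, 15 have a row, and all 15 had the higher value in the adult as deposited, as did 90.3% of all rows. Under the 4 scalings 1 to 6 of the 15 did, beside 28.4% to 59.6% of all rows above 0 in both stages. Their median log2 ratio was 2.22, beside 2.18 for the main 7SK locus and 2.71 for the table. The 17 genes without a row, among them MEPCE, which caps the end of 7SK, and HEXIM2, were not analysed here.

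CDK9, the kinase of P-TEFb, had an authors' FPKM of 20.6 in adult muscle and 8.21 in embryonic muscle (log2 ratio 1.33). Its cyclin partner CCNT1 had 9.33 in adult muscle and 1.43 in embryonic muscle (2.70), and CCNT2, the alternative cyclin, had 3.18 in adult muscle and 0.770 in embryonic muscle (2.04). The kinase thus had the smallest adult-to-embryo difference of the P-TEFb subunits. HEXIM1, the inhibitor that 7SK holds against P-TEFb, had 23.1 in adult muscle and 3.61 in embryonic muscle (2.68). LARP7, the protein that binds the end of 7SK and keeps it stable, had 8.93 in adult muscle and 0.705 in embryonic muscle, and its log2 ratio of 3.66 was the highest of the list. The embryonic values of LARP7 and CCNT2 were below 1 FPKM, so their ratios are less certain.

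Set against its partners within each stage, 7SK went both ways. The main 7SK locus had 3018 FPKM per FPKM of CDK9 in adult muscle and 1665 in embryonic muscle, and 19554 per FPKM of CCNT2 in adult muscle and 17740 in embryonic muscle. It had 2686 per FPKM of HEXIM1 in adult muscle and 3785 in embryonic muscle, 6654 per FPKM of CCNT1 in adult muscle and 9547 in embryonic muscle, and 6951 per FPKM of LARP7 in adult muscle and 19367 in embryonic muscle. The amount of 7SK per partner was therefore lower in adult muscle for 3 of the 5 partners and higher for 2. The median difference of the log2 ratios was -0.49. The embryonic amounts per FPKM of LARP7 and CCNT2 rest on partner values below 1 FPKM. The amount per row is lower for every row with a higher ratio than 7SK, which 64.0% of the rows above 0 in both stages had. The amounts per partner do not change with the scaling between the stages. They compare an RNA with the mRNA of a protein and not with the protein.

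Among the other genes of the list, MLLT3, a subunit of elongation complexes that bind P-TEFb, had an authors' FPKM of 5.63 in adult muscle and 0.592 in embryonic muscle (log2 ratio 3.25). Its embryonic value was also below 1 FPKM. SUPT4H1, a subunit of the pausing factor DSIF, had 21.7 in adult muscle and 2.41 in embryonic muscle (3.17). SYNCRIP and HNRNPA2B1 encode ribonucleoproteins of the kind that bind 7SK when it is not bound to P-TEFb. SYNCRIP had 16.2 in adult muscle and 2.33 in embryonic muscle (2.80), and HNRNPA2B1 had 51.2 in adult muscle and 10.7 in embryonic muscle (2.25). The lowest log2 ratio of the list, 1.01, belonged to NELFE, a subunit of the pausing factor NELF, which was singled out after its values were seen.

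Most protein genes of the signal recognition particle had larger adult-to-embryo differences than its RNA, as did most rows of the table. Of 8 genes of the particle and its receptor, 7 have a row, and as deposited all 7 had the higher value in the adult, with log2 ratios between 2.06 and 4.78 and a median of 3.98. The table's median was 2.71 and 90.3% of its rows were higher. Without SRP54, whose embryonic value was below 1 FPKM, the median of the list was 3.44. With a pseudocount of 1 FPKM it was 3.42. Under the 4 scalings, 4 to 6 of the 7 had the higher value in the adult, beside 28.4% to 59.6% of all rows above 0 in both stages.

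SRP54, the GTPase that binds the signal peptide, had an authors' FPKM of 22.6 in adult muscle and 0.823 in embryonic muscle (log2 ratio 4.78). SRP14 and SRP9 form the dimer that slows translation until the ribosome has docked. SRP14 had 69.2 in adult muscle and 3.32 in embryonic muscle (4.38), and SRP9 had 24.6 in adult muscle and 1.39 in embryonic muscle (4.14). SRP19, which helps SRP54 to bind the RNA, had 38.4 in adult muscle and 2.44 in embryonic muscle (3.98), and SRP72, a subunit of the same end of the particle, had 12.8 in adult muscle and 1.78 in embryonic muscle (2.85). All 5 particle proteins with a row thus had a higher log2 ratio than the main RNA locus (2.15), beside 65.1% of rows above 0 in both stages.

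The receptor genes had smaller differences than most of the particle proteins. SRPR, the receptor subunit that docks the particle, had 49.9 in adult muscle and 12.0 in embryonic muscle, and its log2 ratio of 2.06 was the lowest of the list and the nearest to that of the RNA. SRPRB, the membrane-anchored subunit, had 17.8 in adult muscle and 2.39 in embryonic muscle (2.90). The main Metazoa_SRP locus had 1244 FPKM per FPKM of SRP54 in adult muscle and 7709 in embryonic muscle, a 6.20-fold lower amount in the adult. It had 407 per FPKM of SRP14 in adult muscle and 1913 in embryonic muscle. Per FPKM of SRPR, in contrast, it had 564 in adult muscle and 528 in embryonic muscle. The amount of SRP RNA per partner was lower in adult muscle for 6 of the 7 partners, with a median difference of the log2 ratios of -1.83. The amount per row is lower for every row with a higher ratio, which 65.1% of the rows above 0 in both stages had.

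Of the 17 genes of the translocon and the signal peptidase, which act after the particle has delivered the ribosome, 7 have a row, and as deposited all 7 had the higher value in the adult, with a median log2 ratio of 3.40, beside 90.3% of all rows and a table median of 2.71. Under the 4 scalings, 2 to 5 of the 7 did, beside 28.4% to 59.6% of all rows above 0 in both stages. SPCS1, a subunit of the signal peptidase, had an authors' FPKM of 52.5 in adult muscle and 1.62 in embryonic muscle (log2 ratio 5.01). SEC61G, a subunit of the Sec61 channel, had 246 in adult muscle and 19.8 in embryonic muscle (3.63). SEC61A2, a channel subunit, had a log2 ratio of 3.45, and SSR3, a protein associated with the channel, had 3.40. The loci listed for SPCS1 and SSR3 span 158 and 459 kb.

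The genes that transcribe 7SK and SRP RNA were higher in adult muscle about as often as the table as a whole. RNA polymerase III uses the SNAP complex at the 7SK promoter and the factor TFIIIC at promoters with internal elements, and MAF1 is a general repressor of this polymerase. Of 33 genes, 20 have no row and were not analysed here, and 13 have a row, with 14 transcripts, of which 13 were higher in adult muscle and 1 lower, beside 90.3% and 9.68% of all rows. The median log2 ratio was 2.94, beside 2.71 for the table. It turns negative when the stages are given an equal FPKM total, and 4 to 10 of the 14 transcripts had the higher value in the adult under the 4 scalings, beside 28.4% to 59.6% of all rows above 0 in both stages.

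The largest log2 ratios of this list belonged to the repressor. The MAF1 transcripts had an authors' FPKM of 248 and 85.9 in adult muscle and 7.97 and 1.52 in embryonic muscle, in the same order, with log2 ratios of 4.96 and 5.82. ZNF143, an activator that binds upstream of small RNA genes, had 21.7 in adult muscle and 0.975 in embryonic muscle (4.47). POLR3K, a small subunit of the polymerase, had 5.69 in adult muscle and 0.413 in embryonic muscle (3.79). The embryonic values of ZNF143 and POLR3K were below 1 FPKM. The only gene lower in adult muscle was GTF3C1, the largest subunit of TFIIIC, with 3.69 in adult muscle and 8.21 in embryonic muscle (-1.15). GTF3C1 was singled out after its values were seen.

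**Figure D5:**
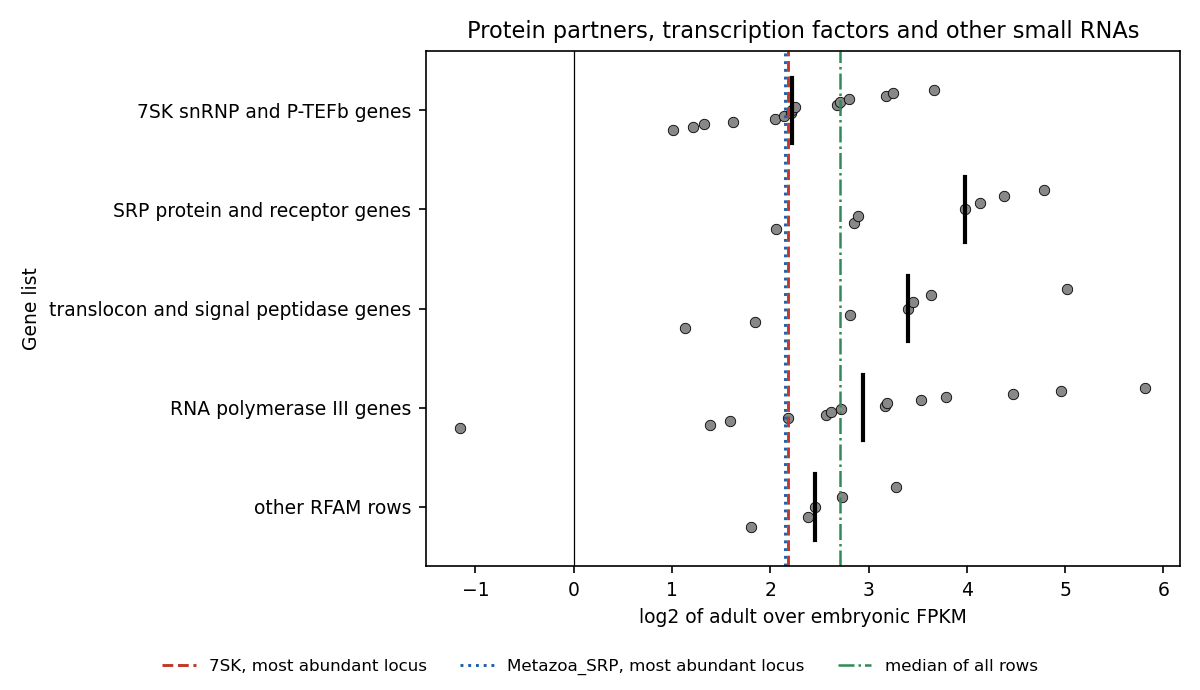
Log2 ratio of adult to embryonic FPKM (horizontal axis) of each listed transcript of 5 gene lists (rows, 1 point per transcript, black bar for the median), with vertical lines for the main 7SK locus (2.18), the main Metazoa_SRP locus (2.15) and the median of all rows (2.71). The 15 rows of the 7SK particle and of transcript elongation have a median of 2.22. Among them, CDK9, CCNT1, CCNT2, HEXIM1 and LARP7 range from 1.33 to 3.66. The rows of the SRP proteins and receptor have a median of 3.98.

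The other RFAM-annotated small RNAs of the table had log2 ratios between 1.81 and 3.28, on both sides of those of 7SK and SRP RNA. Besides these RNAs, 5 rows name the RNA family database RFAM as their source, all small RNAs of the nucleolus or of Cajal bodies, where other RNAs are processed and modified. As deposited all 5 had the higher value in the adult, with a median log2 ratio of 2.46, beside 90.3% of all rows and a table median of 2.71. Under the 4 scalings 0 to 4 of the 5 did, beside 28.4% to 59.6% of all rows above 0 in both stages. SCARNA13 had an authors' FPKM of 1290 in adult muscle and 194 in embryonic muscle (log2 ratio 2.73). The row snoU85 had 1029 in adult muscle and 294 in embryonic muscle (1.81), and SCARNA7 had 963 in adult muscle and 99.0 in embryonic muscle (3.28). SNORA73 had 820 in adult muscle and 149 in embryonic muscle (2.46), and SCARNA6 had 491 in adult muscle and 94.3 in embryonic muscle (2.38). Unlike 7SK and SRP RNA, small RNAs of this kind are mostly cut from introns of host genes, and SCARNA6, SCARNA7 and snoU85 are listed at loci of 44.7, 65.5 and 28.1 kb. The share of these 5 rows was also lower in adult muscle, at 0.681% of the FPKM total, against 1.17% in embryonic muscle.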

How the data were processed

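Longissimus muscle RNA of 3 adult cattle and 3 embryos was used. The authors trimmed reads with Trim Galore, aligned them to bosTau7 with TopHat2 2.0.14 and quantified transcripts with Cufflinks. The FPKM values deposited by the authors count uniquely mapped fragments, with 1 value per stage. Only transcripts they called different have a row. Their fold changes, p-values and q-values were not used, nor were their 3 tables of GO terms. FPKM from an estimator gives no fragment numbers, so the number of fragments behind each value and its precision are unknown. The authors report mapped reads per sample, and a lower exonic share of reads in embryonic than in adult samples. The part of this difference in the FPKM ratios was not tested.

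Log2 ratios of adult over embryonic FPKM, shares of the FPKM total, medians and ranks were computed here (Python 3.11.15, pandas 2.3.3, numpy 2.4.6), with no pseudocount, filter or test, and the computation was tested on simulated data. A row listed at 0 has no ratio. Locus starts count from 0 in the deposited table, since 2 of the 6 H2B rows then have the RefSeq length of 381 bases and the other 4 are longer, and are printed counted from 1. No sequence is shown.

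All 9 rows of 7SK and Metazoa_SRP are given. The core partners, up to 4 further genes of each list by size of ratio, all other RFAM rows and the 5 nearest abundant rows were chosen by rule, and 1 of these abundant rows is not reported here. The members and lists were chosen with earlier results of these data known. Alternatives were pseudocounts of 1 and 0.1, minimum FPKM, 4 scalings between the stages, other denominators and fewer loci.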

Additional observations from a re-analysis of the deposited data

How the results depend on the processing

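No paired analysis was possible because the deposited table has 1 value per stage and no value per animal. For the same reason no animal could be left out, and the number of fragments behind each value is not known. Of 112 alternatives over 19 results, 55 moved a value by 1.5-fold or less. The scalings between the stages rest on called transcripts alone and were the only alternatives that reversed a value.

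With an equal FPKM total in both stages, the log2 ratio of the main locus was -1.07 for 7SK and -1.10 for Metazoa_SRP, that of the summed loci -1.07 and -1.19, and the median of the rows -0.84 and -0.99. Under this scaling 1 row of each RNA was higher in adult muscle, beside 35.1% of all rows above 0 in both stages. The list medians were then -1.04 for the 7SK particle and elongation genes and 0.73 for the SRP proteins and receptor. They were 0.15 for the translocon, -0.31 for RNA polymerase III and -0.79 for the other RFAM rows.

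With the same total taken without 7SK and Metazoa_SRP, the main loci had -1.37 and -1.40, the sums -1.37 and -1.49, and the row medians -1.14 and -1.29. Here 0 rows of these RNAs were higher in adult muscle, beside 28.4% of all rows above 0 in both stages. The list medians in the same order were -1.34, 0.42, -0.15, -0.61 and -1.10.

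Centred on the median of all rows, the main loci had -0.52 and -0.55, the sums -0.52 and -0.65, and the row medians -0.29 and -0.44. In adult muscle 1 row of 7SK and 2 of Metazoa_SRP were then higher, beside 50% of all rows above 0 in both stages. The list medians were -0.49, 1.27, 0.70, 0.24 and -0.25.

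Centred on the ribosomal proteins, the main loci had -0.16 and -0.19, the sums -0.16 and -0.29, and the row medians 0.068 and -0.081. In adult muscle 2 rows of each RNA were then higher, beside 59.6% of all rows above 0 in both stages. The list medians were -0.13, 1.63, 1.06, 0.60 and 0.11.

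A pseudocount of 1 lowered the translocon median to 2.75 and that of RNA polymerase III to 2.07. Among the 93 rows with a locus of at most 1000 bases, weighted by locus length, 7SK took 52.5% in adult muscle and 55.1% in embryonic muscle, and Metazoa_SRP 24.0% in adult muscle and 27.6% in embryonic muscle. These shares lie closer between the stages than those over all rows. Both RNAs make up most of this weighted total, so their shares have little room to differ and nothing is read from this. The ratio of 7SK to Metazoa_SRP stayed within 1.5-fold under both alternatives.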
